A study of Mus musculus with 36 samples.

Results

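The messages described here encode the proteins of the cytosolic ribosome, measured in the livers of mice given a toxic dose of acetaminophen. A gene was included if its symbol began with Rpl or Rps and a digit, or was Rplp0, Rplp1, Rplp2 or Rpsa, and if a probe set of the array carried that symbol alone. The kinases named Rps6k and pseudogenes were left out, and the probe set of highest mean signal stood for each gene. This gave 50 genes of 18193 with a probe set of their own. They comprised 20 proteins of the large subunit, 21 of the small subunit, the stalk proteins Rplp0 and Rplp2, 6 variant paralogs (Rpl3l, Rpl7l1, Rpl22l1, Rpl39l, Rps4l and Rps27l) and Rps19bp1, which binds a ribosomal protein and is not one itself. Another 31 symbols that fit by name, Rplp1 and Rpl5 among them, were found on probe sets shared by several symbols and were not counted as members.

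Total RNA from the liver of 36 mice had been measured on 36 Affymetrix arrays. The mice were of the strains SJL, SMJ, DBA and C57, and each of the 12 combinations of strain and time held 3 different mice. The 0 h mice had not been dosed, and the 24 mice of the 3 h and 6 h groups had received acetaminophen at 300 mg/kg into the abdomen. The mice were fasted overnight before the exposure, which the protocol does not describe apart for the 0 h mice, and no genetic change is named in the labels. In the series SJL is the strain that resists the injury, and SMJ, DBA and C57 are the sensitive ones. No vehicle group at 3 h or 6 h was part of the comparison, and the hours since dosing cannot be told apart from the clock hour or a longer fast. Age and sex are not given in the labels used here. A mouse is named by strain and number, as SJL39.

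A ribosome is built from RNA and a large set of proteins made in nearly equal numbers, and cells adjust the supply of these proteins mostly through growth signals. Most of their messages begin with a 5′ terminal oligopyrimidine (TOP) tract, a C at the cap followed by an unbroken run of C and T, through which the mTORC1 kinase pathway controls their translation. Translation is not measured by these arrays, which report the amount of message. Ribosomal protein messages are among the most abundant in nearly every cell type, hepatocytes included.

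The start sites of the members are shown first because the TOP tract is the feature these messages are known to share. RefSeq's table (GRCm38.p6) held a start for 44 of the 50 members, with 52 starts in all. The lines below give 30 bases around the start on the transcribed strand, 15 on either side, with the tract in capitals where a C followed by at least 4 pyrimidines lay within 5 bases of the start. The genes are the 8 with the largest change past the threshold at 6 h, followed by Rps6 and Rps27l, and where a gene had more than 1 start the first by coordinate is given.
Rpl12, chr2:32961697-32961726, plus strand: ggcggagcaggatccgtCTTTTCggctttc
Rpl22l1, chr3:28805493-28805522, plus strand: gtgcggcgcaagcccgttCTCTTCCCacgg
Rplp2, chr7:141447636-141447665, plus strand: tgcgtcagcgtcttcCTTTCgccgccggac
Rplp0, chr5:115559452-115559481, plus strand: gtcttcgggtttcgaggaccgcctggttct
Rpl10a, chr17:28328456-28328485, plus strand: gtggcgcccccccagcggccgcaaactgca
Rpl41, chr10:128549154-128549183, minus strand: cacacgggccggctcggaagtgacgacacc
Rpsa, chr9:120127751-120127780, plus strand: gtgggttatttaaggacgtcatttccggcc
Rps24, chr14:24490663-24490692, plus strand: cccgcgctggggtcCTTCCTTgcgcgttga
Rps6, chr4:86857353-86857382, minus strand: aagcggaagtcgggcCTCTTTTTCgtgacg
Rps27l, chr9:66946071-66946100, plus strand: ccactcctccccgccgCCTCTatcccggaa

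In Rplp2 and Rps6 the tract began at the annotated start itself, and in Rpl12 and Rpl22l1 it began a few bases further on. Rplp0, Rpl10a, Rpl41 and Rpsa had none by this definition. By this definition 21 of the 52 member starts (40.4%) held the tract, against 18.3% of all 32851 starts in the table. The letters CCGGAAG or their reverse complement CTTCCGG, a core bound by ETS transcription factors, were found on either strand in 21 of the 52 member entries of 300 bases (40.4%) and in 8.86% of all entries. These are matches of letters, and no match says only that the letters are not in the window. In particular, a start annotated a few bases off would miss its tract.

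The probe sets of the members fell into separate ranges of signal, which the results depend on. A group of 36 were bright, with mean signals over the 36 mice from 1852 (Rpl22l1) to 11045 (Rps29). Below Rps29 came Rps10, Rps2, Rpl41 and Rpl38, from 9495 to 8201. The other 14 were dim, from 0.973 (Rps16) to 615 (Rpl37). The dividing signal of 1000 was set after these values were seen. A signal depends on the probes as well as on the message, so signals of different genes are not compared as levels. The dim probe sets of Rps16 and Rpl39l did not pass the filter on low values, and 48 members were tested among 14115 genes. Markers of hepatocytes were bright throughout, with a summed signal over 10 genes of 108809 to 229394, as the liver label requires. The median signal of the arrays at the 3 times averaged 31.0, 29.7 and 31.6, and their number limits the precision.

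By 6 h after the dose, nearly every bright ribosomal protein message stood higher on the deposited scale. As the mean of the 4 strains, 36 of 48 members were higher and 0 lower (limma, adjusted p under 0.05), where 12.7% of all genes were higher and 20.3% lower. The median change of the members was 0.28 on the log2 scale, against -0.05 over all genes tested. The calls took in 35 of the 36 bright members and Rpl12 among the dim ones. By subunit they were 16 of 20 in the large subunit, 17 of 20 in the small subunit, both stalk proteins and 1 of 5 paralogs. Of the 36, 35 had a positive change in each of the 4 strains, the exception being Rps26 in SJL. Leaving out any 1 array gave 35 to 37. A liver sample is a mixture, so more cells of a type and more message per cell cannot be told apart.

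**Figure D1:**
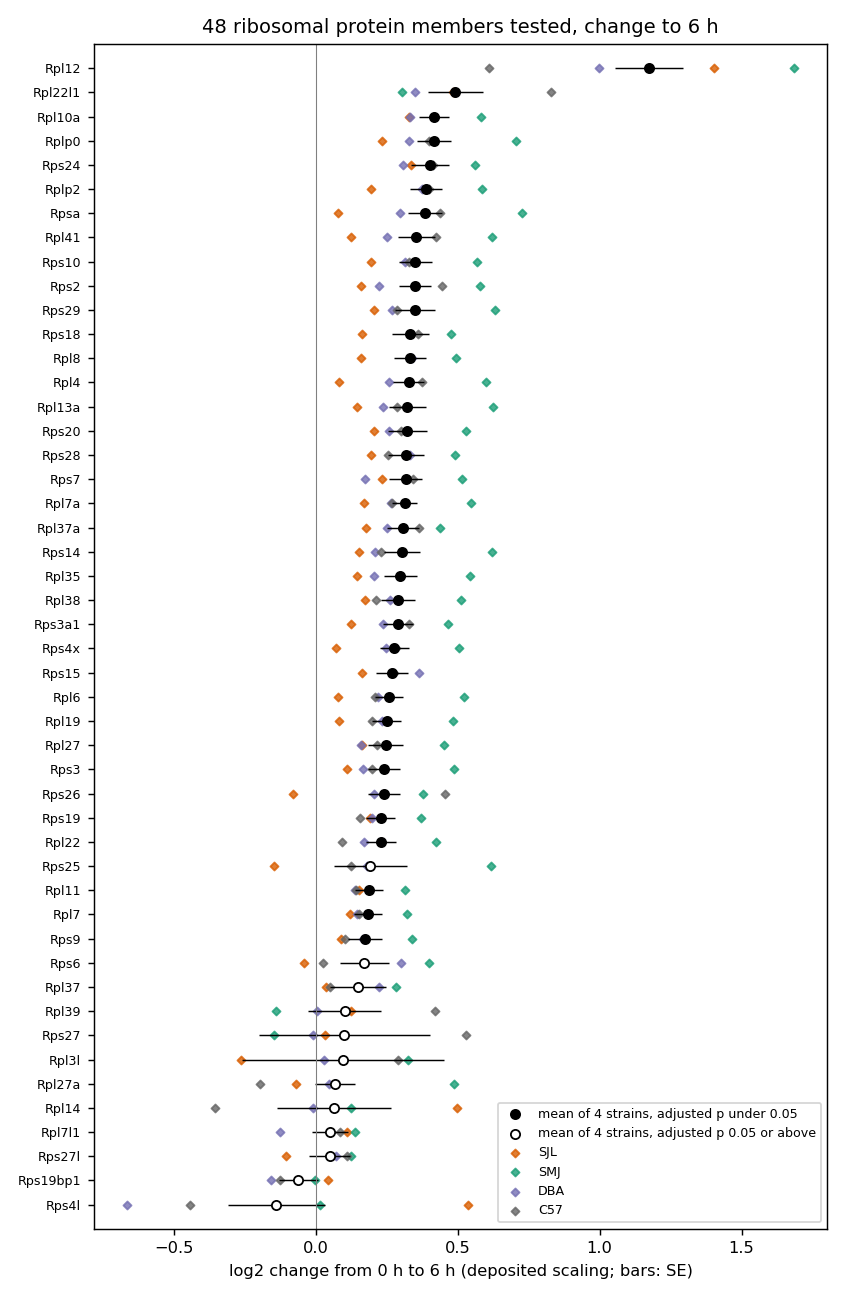
Log2 change from 0 h to 6 h on the deposited scale for the 48 members tested: circles give the mean of 4 strains with its SE, filled where the adjusted p was under 0.05, and diamonds give each strain (3 mice per group). Filled circles number 36, SMJ lies farthest to the right for most bright members, and after quantile normalization 9 members passed, 8 of them among the 36.

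The size of this rise depended on how the arrays were scaled. Quantile normalization, which gives every array the same distribution of signals, left 9 members higher and 0 lower (12.3% and 19.3% of all genes), with a median change of 0.07. The 9 were Rpl8, Rpl10a, Rpl12, Rpl22l1, Rplp0, Rplp2, Rps6, Rps24 and Rpsa, of which 8 were also called on the deposited scale. Dividing each array by its 75th percentile also gave 36, with a median of 0.33 (15% of all genes higher and 16.6% lower). The deposited arrays all have a trimmed mean of 150, but their brightest signals moved with time: the 99th percentile averaged 4807 at 0 h, 5174 at 3 h and 5515 at 6 h. The top 1% of probe sets held 31.1%, 32.9% and 35.3% of the summed signal. Hepatocyte markers, which are also bright, moved alike. Of 10, 8 were higher at 6 h on the deposited scale, and 0 were higher and 1 lower after quantile normalization. Whether the bright end of the arrays moved through the RNA or through the measurement was not tested. Probe sets at both ends of the actin message, which read RNA integrity, had a 3′ over 5′ signal of 1.67, 1.52 and 1.48 on average at the 3 times. Those of Gapdh had 0.743, 0.746 and 0.741, and their part in the result was not tested.

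**Figure D2:**
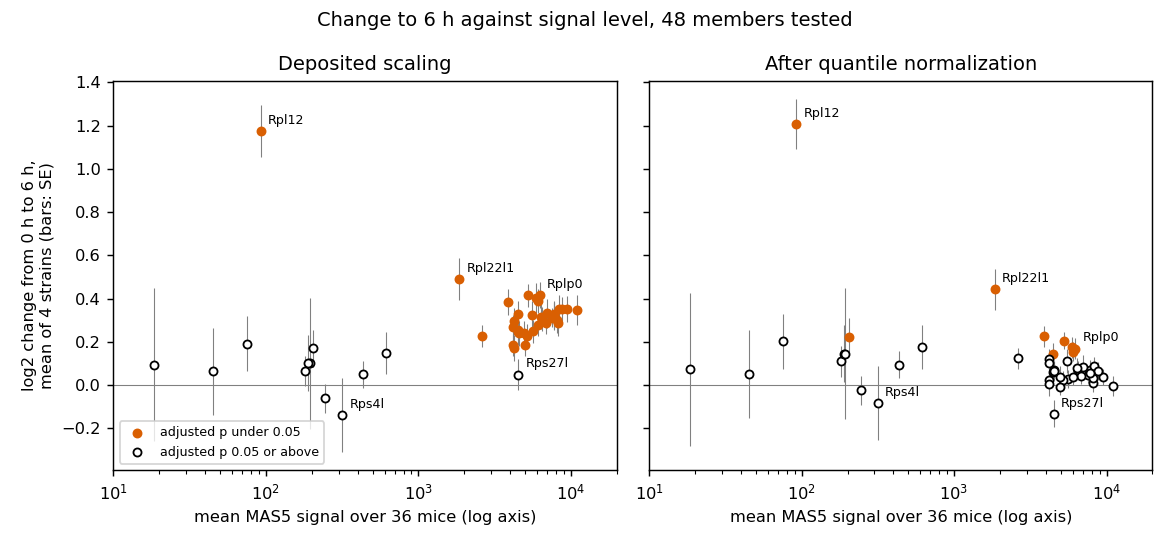
Log2 change from 0 h to 6 h (mean of 4 strains, bars SE) against the mean signal of each of the 48 members tested on a log axis, on the deposited scale and after quantile normalization. The bright members sit around 0.31 in the left panel and around 0.07 in the right, while Rpl12 stays near 1.2 in both.

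The median signal of the 36 bright members shows the same in each mouse. On the deposited log2 scale SMJ went furthest, from a group mean of 12.27 before the dose through 12.50 at 3 h to 12.80 at 6 h. C57 passed from 12.32 through 12.42 to 12.65, and DBA from 12.38 through 12.47 to 12.62. SJL reached 12.49 at 3 h from 12.25 and stood at 12.45 at 6 h. The 3 SMJ mice at 6 h lay between 12.77 and 12.84, above every other mouse of the study. The SJL mice at 6 h were spread from 12.33 to 12.64 and overlapped those at 0 h, which lay between 12.17 and 12.40. After quantile normalization SMJ went from 12.45 to 12.58 and C57 from 12.46 to 12.59, whereas DBA went from 12.41 to 12.37 at 3 h and 12.48 at 6 h. SJL stood highest at 3 h on that scale, 12.56 against 12.34 at 0 h and 12.43 at 6 h.

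**Figure D3:**
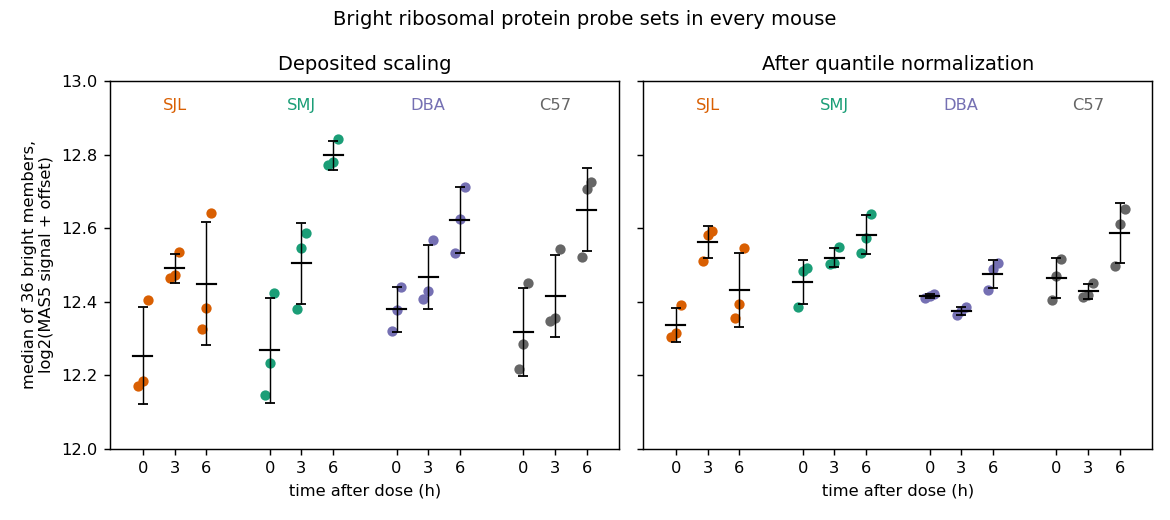
Median log2 signal of the 36 bright members in each of the 36 mice, by strain and hours after the dose, as deposited and after quantile normalization; lines are means and bars SD of 3 mice. The SMJ mice at 6 h are the highest on the deposited scale, between 12.77 and 12.84, and its rise from 0 h to 6 h is smaller in the right panel, where SJL stands highest at 3 h.

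The stalk of the large subunit recruits the elongation factors, and both of its proteins with a probe set of their own rose under either scaling. Values of Rplp1, found on shared probe sets, are not given. Rplp0, the protein at the base of the stalk, measured 4874, 6679 and 5598 in the SJL mice at 0 h and 6382, 6184 and 7470 at 6 h. In SMJ it went from 6144, 5989 and 5401 to 9671, 8738 and 10163. C57 had 5250, 5273 and 5957 before the dose, followed by 7730, 7946 and 6167. DBA had 4014, 3980 and 4121, followed by 5231, 5289 and 4703. The mice at 6 h lay above all those at 0 h in SMJ, DBA and C57, and the groups overlapped in SJL. At 3 h the SJL mice had measured 6921 to 7769, above their 0 h mice. The mean change was 0.42 ± 0.06 (SE, adjusted p = 5.9e-06), or 0.17 after quantile normalization (adjusted p = 0.00827). Rplp2, an acidic protein of the stalk, rose by 0.39 ± 0.06 (adjusted p = 3.88e-06), or 0.16 after quantile normalization (adjusted p = 0.00916).

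Among the proteins of the large subunit, Rpl12 had the largest change of any member. Rpl12 forms the foot on which the stalk is mounted, and it was read by a single dim probe set of mean signal 92.3. The SJL mice went from 65.1, 40.5 and 45.2 at 0 h to 118, 137 and 151 at 6 h, and the SMJ mice from 65.7, 68.4 and 50.4 to 225, 216 and 170. C57 started at 73.6, 62.0 and 79.1 and ended at 92.9, 128 and 112.7. DBA started at 55.4, 41.3 and 49.7 and ended at 143, 78.7 and 87.1. All mice at 6 h were above all mice at 0 h of their strain. The mean change was 1.17 ± 0.12 (adjusted p = 2.64e-08) and 1.21 after quantile normalization (adjusted p = 9.21e-09). At 3 h the strains parted. SJL already measured 146, 202 and 114.5 (a change of 1.56 ± 0.24, adjusted p = 0.000108), while C57 measured 57.8, 41.1 and 38.4, SMJ 73.7, 62.5 and 63.6, and DBA 45.8, 79.6 and 42.5. The SJL change to 3 h exceeded the mean of the other 3 strains by 1.68 ± 0.28 (adjusted p = 0.000691), and by 1.66 after quantile normalization (adjusted p = 0.000778). At 6 h this difference was 0.30 (adjusted p = 0.686). No second probe set of its own was there to compare with the dim one. Other bright members of the large subunit were closer together. Rpl10a, a protein near the tRNA exit site, rose by 0.42 ± 0.05 (adjusted p = 6.13e-07), or 0.21 after quantile normalization (adjusted p = 0.000148). Rpl41, a very short basic peptide, rose by 0.35 ± 0.06 (adjusted p = 0.000109) and stood at 0.09 after quantile normalization (adjusted p = 0.108). Rpl11, which with Rpl5 can bind the p53 ligase Mdm2, rose by 0.19 ± 0.05 (adjusted p = 0.00481), near the lower end of the bright members.

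In the small subunit the bright members lay between 0.17 (Rps9) and 0.40 (Rps24). Rpsa, which joins the small subunit late and is also known as the laminin receptor, measured 2811 to 3788 in SMJ at 0 h and 4919 to 5709 at 6 h. In C57 it went from 3329 to 3748 up to 4122 to 5273, in DBA from 3100 to 3430 up to 3856 to 4282, and in SJL from 3131 to 3839 to 3388 to 3925. The first 3 strains were apart from their 0 h mice, and SJL overlapped. At 3 h the SJL mice had measured 4145 to 4538, above their 0 h mice. The mean change was 0.38 ± 0.06 (adjusted p = 1.68e-05), and 0.23 after quantile normalization (adjusted p = 0.00092). Rps24, which takes part in processing the small-subunit RNA, rose by 0.40 ± 0.07 (adjusted p = 3.85e-05), or 0.17 after quantile normalization (adjusted p = 0.00798), with 6 h above 0 h in all 4 strains. Rps10 and Rps2 both rose by 0.35 (SE 0.06, adjusted p = 4.3e-05 and 2.52e-05), and their changes after quantile normalization were 0.04 and 0.07 (adjusted p = 0.484 and 0.279). Rps29, the brightest member, had 0.35 ± 0.07 (adjusted p = 0.000318) and -0.0029 after quantile normalization (adjusted p = 0.972). Rps6, the substrate of the S6 kinases downstream of mTORC1, was read by a dim probe set and changed by 0.17 ± 0.09 (adjusted p = 0.137). It passed the threshold after quantile normalization alone, at 0.22 (adjusted p = 0.0499). The dim Rps25 and Rpl14 stood at 0.19 ± 0.13 and 0.06 ± 0.20 (adjusted p = 0.273 and 0.853).

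The paralogs did not move as a block. Rpl22l1, the paralog of Rpl22, measured 1075, 1146 and 2122 in C57 at 0 h and 2793, 2624 and 2010 at 6 h, so that C57182 at 0 h lay among the 6 h mice. Its mean change over strains was 0.49 ± 0.10 (adjusted p = 0.00026), and 0.44 after quantile normalization (adjusted p = 0.000605). In C57 alone it was 0.83 ± 0.19 (adjusted p = 0.00564, and 0.0538 without C57180). Rps27l, a paralog of Rps27 known as a p53 target, was the 1 bright member not called. C57 lay between 4177 and 5583 at 0 h and between 4869 and 5202 at 6 h, and DBA between 4375 and 4802 and then 4494 and 5209. SMJ lay between 4069 and 4541 and then 4092 and 5245, and SJL between 4167 and 4296 and then 3207 and 5010. The times overlapped in every strain. Its change was 0.05 ± 0.07 (adjusted p = 0.659), and the other 2 probe sets of Rps27l gave 0.09 and 0.04. After quantile normalization the 3 probe sets lay between -0.13 and -0.07. Rps4l, a paralog of Rps4x, changed by -0.14 ± 0.17 (adjusted p = 0.59), Rpl7l1 by 0.05 (adjusted p = 0.599) and Rpl3l, the striated muscle paralog of Rpl3, by 0.10 ± 0.35 (adjusted p = 0.876). Rps4l, Rpl7l1 and Rpl3l were read by dim probe sets, of mean signal 316, 434 and 18.6. Of all 12 dim members tested, 1 was called at 6 h. Rps19bp1 changed by -0.06 (adjusted p = 0.551).

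**Figure D4:**
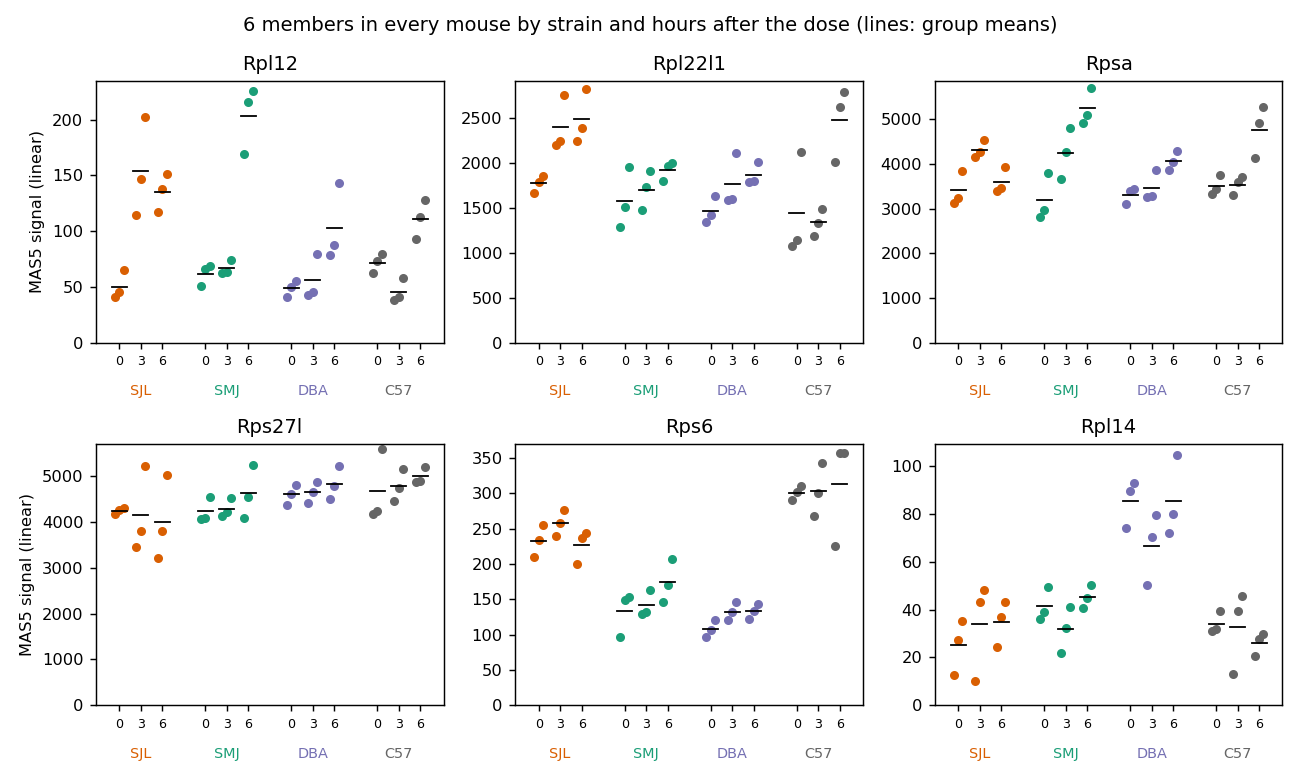
Signal of 6 members in each of the 36 mice on the deposited linear scale, by strain and hours after the dose, with lines at the group means. Rpl12 is high in SJL from 3 h and in the other strains at 6 h, Rps27l overlaps between times, and Rps6 and Rpl14 differ between strains more than between times.

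In each array the median log2 signal of the 36 bright members was subtracted from each member, which removes what they share. The change of the remainder from 0 h to 6 h within a strain is called the distance here. Because the median is that of these same members, small distances for most of them are in part built in. Of the 36, the distance, as the mean of the strains, was under 0.1 in size on the log2 scale for all but 5. The distance was 0.16 for Rpl22l1, -0.28 for Rps27l, -0.15 for Rps9, and -0.14 for both Rpl7 and Rpl11. For Rps27l it was negative in each strain, from -0.41 to -0.17, while for Rpl22l1 it ranged from -0.23 to 0.50. For the dim Rpl12 it was 0.85, and positive in each strain. These distances are descriptions, with no test.

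Probe sets not chosen to stand for the members gave a further reading in the same RNA. Many bright probe sets, chosen or not, are named as binding other transcripts too, so a reading need not be of 1 gene alone. Of 32 other bright probe sets that carried a member's symbol alone, 30 had a positive change at 6 h, with a median of 0.26 and of 0.09 after quantile normalization. Of 24 dim ones 15 were positive. Among 80 bright probe sets shared by several symbols, with at least 1 symbol fitting the rule, 79 were positive. The median of the 80 was 0.29 (0.09 after quantile normalization). Over all 14115 genes tested, 6229 had a positive change at 6 h. No such count is given for bright probe sets of other genes, so the part of the brightness was not tested. For Rps10, the probe sets of mean signal 4047 and above gave 0.26 to 0.35, while those of mean signal 1178 and 18.1 gave -0.03 and -0.49. Across arrays the bright members also varied together within groups: the median correlation between 2 bright members, over the 36 arrays after group means were removed, was 0.678 over 630 pairs, and 0.300 after quantile normalization. For 2 dim members it was 0.02. All members share the arrays and their scaling.

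At 3 h the changes were smaller, and few members passed. As the mean of the strains 7 of 48 were higher and 0 lower (3.24% and 4.02% of all genes), all of them bright, with a median of 0.14 against -0.03 for all genes. Rplp0 stood at 0.25 ± 0.06 (adjusted p = 0.0117), Rpl41 at 0.22, and Rpsa, Rpl37a, Rplp2 and Rpl10a at 0.21 each. Rpl41 and Rpsa (adjusted p = 0.0319 and 0.0328) fell short without any of 11 and 13 single arrays, with adjusted p up to 0.0702 and 0.0729. The dim probe sets of Rpl41 gave -0.17 and -0.21, and its other bright probe set, of mean signal 6040, gave 0.29. After quantile normalization limma called 0 members, with 7 at an unadjusted p under 0.05 and a median of 0.04 (3.46% and 3.56% of all genes were higher and lower), whereas scaling by the 75th percentile gave 16 (4.24% and 2.84%). The count was 4 without any 1 of SJL1, SJL4, SMJ57, SMJ58, SMJ95, DBA114, DBA160, C57181 or C57226, 11 without SJL39 or SMJ56, and 13 without SJL2 or C57182. From 3 h to 6 h, 13 members rose and 0 fell (6.94% and 9.77% of all genes), led by Rpl12 at 0.88 ± 0.12 (adjusted p = 1.48e-05), Rpl22l1 at 0.30 (adjusted p = 0.0331, and up to 0.065 without single arrays) and Rps10 at 0.24 (adjusted p = 0.00597). That count was 4 without SJL48, 6 without SMJ96, DBA168 or C57231, 7 without SMJ101, DBA158, DBA159, C57230 or C57236, and 8 without DBA166. Rpl12 and Rpl22l1 alone passed after quantile normalization (6.14% of all genes higher and 9.33% lower).

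Each strain was next compared with its own 0 h mice. At 6 h, 35 members were higher in SMJ (8.87% of all genes higher and 12.5% lower), 11 in C57 (4.39% and 5.75%), 5 in DBA (4.85% and 7.74%) and 1 in SJL (3.63% and 3.37%). No member passed as lower in any strain. The medians were 0.49, 0.28, 0.23 and 0.15 in that order. After quantile normalization the counts were 3, 2, 1 and 1 (7.81%, 4.25%, 5.12% and 3.84% of all genes higher), with medians of 0.10, 0.09, 0.05 and 0.06. Scaling by the 75th percentile gave 36, 8, 15 and 1 in the same order, so that DBA then had more than C57. On that scale 10.3%, 4.04%, 6.56% and 3.83% of all genes were higher and 9.88%, 6.13%, 4.74% and 2.6% lower. The balance thus turned in SMJ and in DBA. Without relying on the fit, all 3 mice at 6 h lay above all 3 at 0 h for 36 members in SMJ (15.2% of all genes), 31 in DBA (11.6%), 24 in C57 (15.1%) and 6 in SJL (10.9%). This held in all 4 strains for 4 members, Rpl10a, Rpl12, Rps15 and Rps24 (1.85% of all genes). The SMJ changes were led by Rpl12 at 1.69 ± 0.24 and Rpsa at 0.73 ± 0.12 (adjusted p = 1.5e-05 and 0.000103). In DBA they were led by Rpl12 at 1.00 ± 0.24 (adjusted p = 0.00619, and 0.0628 without DBA166) and Rplp2 at 0.37 ± 0.11 (adjusted p = 0.0246, and up to 0.107 without DBA113, DBA114, DBA115, DBA166 or DBA168). In C57 Rps26, which lies at the exit of the messenger channel, rose by 0.45 ± 0.11 (adjusted p = 0.00981, and 0.0547 without C57181). In SJL the 1 member was Rpl12 at 1.40 ± 0.24 (adjusted p = 0.000351). With only the 6 arrays compared in each fit, limma called 6 members in SMJ, 1 in SJL and 0 in DBA and C57, with 33, 3, 11 and 14 at an unadjusted p under 0.05. In these fits 4.08%, 1.47%, 1.96% and 1.11% of all genes were higher. The DBA count was 1 without DBA113, DBA114, DBA115 or DBA168 and 0 without DBA166. The C57 count was 4 without C57180, C57181 or C57236 and 3 without C57233. The SJL count was 2 without SJL2 or C57237.

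At 3 h, 2 members were higher in SJL (4.44% of all genes higher and 5.67% lower), Rpl12 and Rpl10a, the latter at 0.37 ± 0.10 (adjusted p = 0.0223, and up to 0.119 without SJL1, SJL4, SJL40 or SJL42). Quantile normalization raised the SJL count to 9 (4.74% of all genes higher), the fit of the 6 arrays alone gave 0 with 3 at an unadjusted p under 0.05 (0.0213% of all genes higher), and the count was 1 without SJL1, SJL4, SJL40 or SJL42 and 7 without SJL2. Limma called 0 members at 3 h in SMJ, DBA and C57, where 0.177%, 1.06% and 0.205% of all genes were higher and 0.0283%, 0.397% and 0.0779% lower, with 18, 0 and 3 members at an unadjusted p under 0.05. The SMJ count was 2 without SMJ56. The medians were 0.22, 0.09 and 0.05, and after quantile normalization they were 0.07, -0.05 and -0.08, so that the direction in DBA and C57 turned with the scaling.

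Whether the strains differed in these changes was tested directly. An F test in limma of the changes to 3 h and 6 h over the 4 strains called 2 of 48 members, against 8.04% of all genes. They were Rpl12 (adjusted p = 0.00176) and Rpsa (adjusted p = 0.0353), and both also passed after quantile normalization (adjusted p = 0.0016 and 0.0115, with 8.03% of all genes called). Rpsa fell short, with an adjusted p up to 0.0926, without any 1 of SJL40, SJL44, SJL45, SMJ57, SMJ58, SMJ101, DBA113, DBA115, C57230, C57231 or C57236. Between SJL and the average of SMJ, DBA and C57, the change to 3 h differed in 1 member, Rpl12 (2.13% of all genes higher and 2.49% lower), and after quantile normalization in 3, Rpl7a, Rpl10a and Rpl12 (2.07%). For the change to 6 h limma called 0 members (0.198% of all genes higher and 0.0496% lower), with 7 at an unadjusted p under 0.05. The median difference was -0.18 as deposited and -0.01 after quantile normalization. SMJ was not tested against SJL alone at 6 h, so their unequal counts are not shown to be a difference between those strains.

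Before the dose, the signal of 10 of 48 members differed between strains (limma F test, against 26.5% of all genes). After quantile normalization that of 12 did (26.6%). The count as deposited was 6 without SMJ57, DBA113 or DBA115. A signal depends on the probes as well as on the message, and these cannot be told apart between strains here. Rps6, Rps4l and Rpl14, named below, were read by dim probe sets of mean signal 205, 316 and 45.2. The smallest p was that of Rps6 (adjusted p = 6.07e-07), which measured 302, 310 and 291 in C57 and 256, 234 and 210 in SJL. In SMJ it measured 149, 153 and 96.6, and in DBA 96.1, 107 and 120. The C57 mice were the highest and the 3 DBA mice overlapped only the lowest SMJ mouse. Rplp0 was lowest in DBA, at 4038 ± 73.5 (SD, n = 3) against 5493 to 5845 in the other strains (F test adjusted p = 0.00449). Rps4l stood at 158.4 ± 43.6 in DBA, 256 ± 16.6 in SJL, 434 ± 134 in SMJ and 437 ± 78.1 in C57 (SD, n = 3; F test adjusted p = 0.0045). Rps3 and Rpl14 followed (adjusted p = 0.0102 and 0.0109), with Rpl14 at 85.4 ± 10.0 in DBA and 25.1 to 41.5 elsewhere. The call of Rps3 ended without DBA113 or DBA115 (adjusted p up to 0.0887). Setting SJL against the average of SMJ, DBA and C57 gave 1 member higher, Rps6 at 0.52 ± 0.14 (adjusted p = 0.0147, and up to 0.105 without SJL1 or SJL2), and 1 lower, the dim Rpl14 at -0.998 ± 0.33 (adjusted p = 0.046), where 6.55% and 5.84% of all genes were called. The call of Rpl14 ended without any of 22 single arrays, with an adjusted p up to 0.359. After quantile normalization 1 was higher and 4 lower (6.65% and 6.44% of all genes).

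Genes that build or run the ribosome are set beside its proteins, and each count is to be read against the 12.7% of all genes called higher and 20.3% called lower at 6 h (12.3% and 19.3% after quantile normalization). Among factors of RNA polymerase I and of ribosomal RNA processing, 32 of 77 were higher and 3 lower at 6 h, and 36 and 3 after quantile normalization. Nolc1, a nucleolar chaperone, rose by 0.71 ± 0.08 (adjusted p = 1.01e-07), and Gnl3, a nucleolar GTPase, by 0.63 (adjusted p = 1.86e-07). Of 8 hosts of small nucleolar RNAs, the same 4 passed under both scalings, Snhg1, Snhg5, Snhg12 and Gas5. Snhg5 rose by 0.86 (adjusted p = 2.22e-05) and Gas5, whose message has a TOP tract, by 0.43 (adjusted p = 3.72e-05). Of 33 initiation factors, 8 rose and 0 fell, and after quantile normalization 7 rose and 2 fell. Among them were the cap-binding protein Eif4e at 0.51 (adjusted p = 7.6e-07) and Eif6, which keeps the subunits apart, at 0.35 (adjusted p = 2.85e-05).

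In some further lists fewer genes passed as higher after quantile normalization, as among the members, and in others more did. For every list here the background is again 12.7% of all genes higher and 20.3% lower (12.3% and 19.3% after quantile normalization). Of 17 other TOP messages 11 rose and 1 fell as deposited, against 3 and 2 after quantile normalization. The elongation factor Eef1a1 stood at 0.36 (adjusted p = 0.00017) and at 0.01 (adjusted p = 0.887) in turn. Of 11 elongation factors 5 rose and 1 fell, or 2 and 1. The list of other TOP messages shares genes with other lists, Eef1a1 and Gas5 among them, so the counts are not separate. Fau, a ribosomal protein made as a fusion with a ubiquitin-like part, rose by 0.37 (adjusted p = 4.61e-05) and stood at 0.13 after quantile normalization (adjusted p = 0.0715). Of 76 mitochondrial ribosomal proteins 4 rose and 23 fell, or 7 and 18, and most were not called. Their median of -0.07 was near the -0.05 of all genes tested, with Mrpl15 falling by 0.45 on the log2 scale (adjusted p = 3.14e-06). Of 39 proteasome subunits, 5 rose and 3 fell, or 2 and 4. In the list of mTORC1 signalling, TOP message regulators and MYC, 7 of 28 rose and 7 fell, or 8 and 7. Myc, which drives transcription of ribosome genes, rose by 2.60 ± 0.16 (adjusted p = 1.93e-12), Mdm2, to which several ribosomal proteins bind, by 1.40 ± 0.11 (adjusted p = 1.2e-10), and Deptor, an inhibitor of mTOR, fell by 0.59 on the log2 scale (adjusted p = 2.57e-06). Whether any list differed from the members was not tested.

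**Figure D5:**
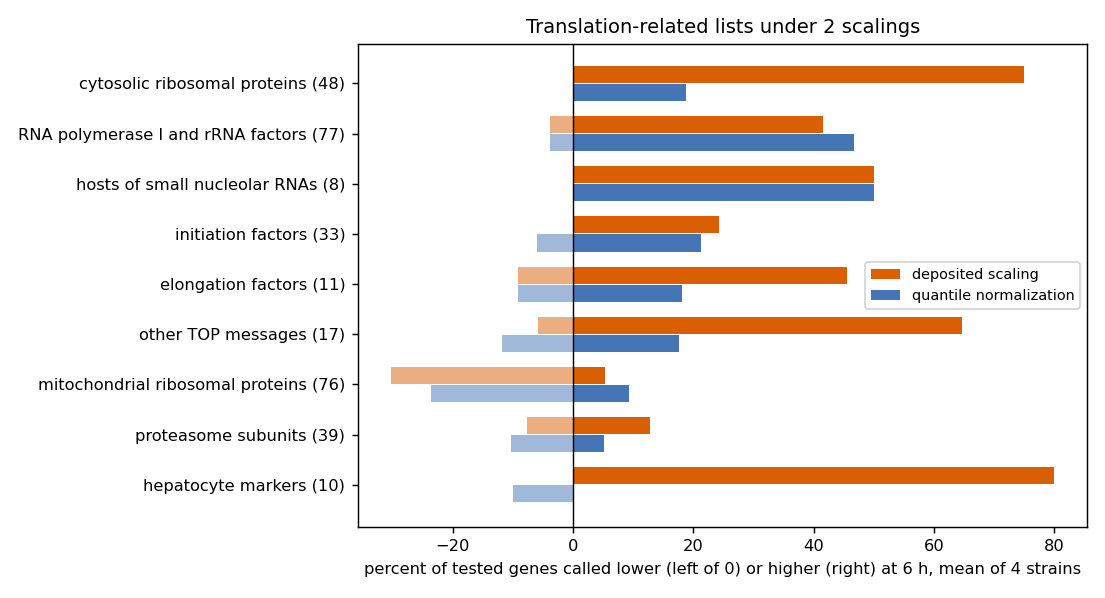
Percent of tested genes called higher (right of 0) or lower (left) at 6 h as the mean of 4 strains, for the 48 ribosomal protein members and 8 other lists (number tested in brackets), on the deposited scale and after quantile normalization. The members go from 36 calls to 9 and hepatocyte markers from 8 to 0, whereas factors of ribosomal RNA synthesis go from 32 to 36.

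Other cell types of the liver were measured beside the members, since the sample holds them too, with the same 12.7% of all genes higher and 20.3% lower as the background. From 0 h to 6 h the summed signal of 10 neutrophil markers went from 180 to 995 up to 464 to 2630 (lowest to highest of 12 mice), and 5 of 9 tested rose and 0 fell. Of 13 Kupffer cell and macrophage markers 5 rose and 0 fell, with sums of 4492 to 8834 and then 6000 to 9193. Of 11 endothelial markers 8 rose and 0 fell, with sums of 3287 to 5037 and then 3783 to 6859. Stellate cell and fibroblast markers rose in 4 of 10 and fell in 2, bile duct markers rose in 1 of 5, and erythroid markers in 1 of 4. Of 8 lymphocyte markers limma called 0. The part of other cells in the members' changes was not tested.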

How the data were processed

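Each of the 36 one-colour Affymetrix arrays of liver total RNA has 1 deposited intensity per probe set, a MAS5 signal per the submitters' processing notes; the version is not given in the sources used here. They were linear, each array had a 2% trimmed mean of 150, and they were used as deposited. The members and gene lists were chosen with earlier results of these data known. Genes were named from GEO's platform annotation: 34945 of 45101 probe sets carried 1 symbol, 932 several and 9160 none, and 64 were controls. The probe set of highest mean signal represented a gene.

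The offset added before log2 was 2.77, the 10th percentile of all values. Genes with at least 3 arrays above the median of all values, 30.8, were tested. Group means of the 12 groups were fitted in R 4.3.3 with limma 3.58.1 over the 36 arrays together (24 residual degrees of freedom), with Benjamini-Hochberg adjustment over all genes tested and a two-sided threshold of 0.05. The procedure was tested on simulated data. Mouse numbers pair no mice, the labels name no batch, and nothing says more of the mice than that they are separate.

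Members named with values were the 10 with the largest change past the threshold at 6 h, 5 at 3 h, 3 from 3 h to 6 h, 2 per strain and time, 5 per SJL contrast and 5 per F test each way, the stalk, the paralogs, and Rpsa, Rps6, Rpl11 and Rps19bp1, and the 5 brightest and 5 dimmest; from other lists, up to 4 per time by p. Not all of these are printed, and Rpl37, Rpl7, Rps9, Rps15 and Rpl8 were named after their values were seen, as were the probe sets of Rps10 and Rpl41. The alternatives were quantile normalization, 75th percentile scaling, an offset of 16, no filter, probe sets named as binding other transcripts passed over, members without paralogs and Rps19bp1, only the 6 arrays compared, and each array left out in turn. Promoter entries are RefSeq's, 250 bases before and 50 after a start.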

Additional observations from a re-analysis of the deposited data

Results flagged for a closer look

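The changes after the dose differed between strains in 2 of 48 members, against 8.04% of all genes. Rpl12 had an adjusted p of 0.00176 and Rpsa of 0.0353 in limma's F test over the changes to 3 h and 6 h in the 4 strains. The call of Rpsa ended without any 1 of 11 single arrays, with an adjusted p up to 0.0926 in that F test. Rpl12 changed in SJL to 3 h by 1.68 more on the log2 scale than the mean of the other 3 strains. All 3 SJL mice at 3 h lay above all 9 mice of the other strains at that time. Rpsa changed to 6 h by 0.73 in SMJ, 0.44 in C57, 0.30 in DBA and 0.08 in SJL. In SJL its mean signal at 0 h, 3 h and 6 h was 3406, 4319 and 3591, highest at 3 h. The means were 3191, 4239 and 5244 in SMJ, 3506, 3531 and 4767 in C57, and 3306, 3468 and 4061 in DBA. Groups of 3 mice are too small to single out 1 mouse.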

How the results depend on the processing

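Quantile normalization changed most counts of members called. They went from 7 to 0 at 3 h, from 36 to 9 at 6 h and from 13 to 2 between the times as means of the strains. Within strains they went to 9 in SJL at 3 h, and to 3 in SMJ, 1 in DBA and 2 in C57 at 6 h. For SJL against the other strains they went to 5 at 0 h and 3 for the change to 3 h. Medians became 0.071 at 6 h and 0.034 between the times. In C57, DBA and SMJ they became -0.077, -0.047 and 0.070 at 3 h, and 0.086, 0.050 and 0.10 at 6 h. The SJL contrasts had medians of 0.23 at 3 h and -0.0056 at 6 h. The 75th percentile gave 16 at 3 h, 15 in DBA at 6 h and 1 for the F test of the changes. With no filter the counts were 4 at 3 h, 8 between the times, 2 in DBA and 7 in C57 at 6 h, 1 for SJL at 0 h and 1 for that F test. With more specific probe sets preferred, 2 members passed for the SJL change to 3 h, Rpl41 stood at -0.17 at 3 h (adjusted p = 0.684) and Rps10 at -0.49 at 6 h (adjusted p = 0.314); those probe sets are dim. With only 6 arrays fitted the counts were 0 in SJL at 3 h, and 6 in SMJ, 0 in DBA and 0 in C57 at 6 h. With each array left out in turn the counts ranged from 4 to 13 at 3 h, 35 to 37 at 6 h and 4 to 19 between the times. They ranged from 1 to 7 in SJL and 0 to 2 in SMJ at 3 h, 3 to 15 in C57, 0 to 7 in DBA, 28 to 36 in SMJ and 1 to 2 in SJL at 6 h, 0 to 3 for SJL at 0 h, 6 to 10 for strains at 0 h and 1 to 2 for the F test of the changes. Shares of all genes are not given for the fits with no filter, with more specific probe sets or with arrays left out. The same holds for the F test under the 75th percentile. These counts, here and above, therefore cannot be read against a background. The cause of these shifts was not tested. An offset of 16, and leaving out the paralogs, moved no count past 1.5 times. Dim probe sets limit 12 of the members tested. No paired analysis was possible because each mouse has its own number.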
